A study of Homo sapiens with 6 samples.

Results

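Tetraspanins are membrane proteins that cross the membrane 4 times and carry a large extracellular loop held by cysteine bridges. The family was taken from the deposited table by gene symbol: every TSPAN gene with a number, the CD-named members CD9, CD37, CD53, CD63, CD81, CD82 and CD151, the uroplakins UPK1A and UPK1B, and the photoreceptor genes PRPH2 and ROM1. This gave 33 genes of 20061 rows, and each symbol was found once. Of these 33, 19 had been tested by the authors and 14 had not. The untested ones reached no more than 0.301 FPKM, a level scaled to transcript length and to the number of sequenced fragments.

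The cells were HEYA8, an established human ovarian cancer line whose source the submitters give as low grade serous carcinoma. Both groups carried a lentiviral construct that stably expressed a short hairpin RNA and were kept under puromycin. The control hairpin was directed at luciferase, which human cells lack (shLuciferase, 3 samples), and the other at ETS1, a transcription factor that binds GGAA-centred DNA (shETS1, 3 samples). The table gives 1 FPKM value per gene and group, so a spread between samples, a standard error or an interval could not be computed, and sequencing depth is unknown. Nothing in the labels tells whether separate cultures stand behind the 3 samples, and the p-values may therefore measure technical spread only. How many hairpins or clones stand behind a group is not said in the labels. ETS1 itself fell from 41.4 to 17.9 FPKM (q = 0.00964, the authors' deposited table). Of the carcinoma and epithelial markers, KRT8 (1913 and 1288 FPKM) and PAX8 (79.7 and 76.8 FPKM) were abundant, EPCAM was at 1.71 and 1.82 FPKM, and MUC16 was at 0.000625 FPKM in shLuciferase and listed at 0 in shETS1.

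Tetraspanins act by binding other membrane proteins sideways and gathering them into microdomains. CD9, CD81, CD82 and CD151 organise integrins, immunoglobulin-like receptors and growth factor receptors at the surface, and CD63 marks late endosomes and secreted vesicles. A subgroup with an extra pair of cysteines in the large loop, called TspanC8, escorts the sheddase ADAM10 to the membrane. CD82, also called KAI1, is known as a metastasis suppressor that is often lost in advanced carcinomas, and it dampens integrin and receptor signalling.

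CD82 was the one member called. It rose 3.26-fold, from 4.43 FPKM in shLuciferase to 14.4 FPKM in shETS1. Its log2 fold change was 1.71 (p = 5e-05 and q = 0.00964, the authors' deposited table). This p-value is the smallest listed for any gene and is shared by others, among them ETS1, CD46 and CDH5. No other tetraspanin passed a q-value of 0.05, so 1 of 19 tested members was called, and that one higher. Over all 11952 tested genes 0.812% were called, 0.544% as higher and 0.268% as lower in shETS1. The members were chosen with earlier results of these data known, so 1 of 19 does not test an excess over these shares. At q-value limits of 0.1 and 0.01, which 1.26% and 0.519% of all tested genes met, CD82 was likewise the 1 member called. Only 3 of the 60 genes that were called higher with a mean of at least 1 FPKM had a larger ratio than CD82. In the order of the 33 levels, CD82 held rank 15 in shLuciferase and rank 11 in shETS1, where it stood between TSPAN6 and TSPAN15. In RNA of pooled cells, a higher level in every cell and a larger share of cells with a high level cannot be told apart.

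The rise of CD82 was not shared by the tested genes around it. The locus of CD82 (hg19, chromosome 11, 44587141 to 44641315) overlaps that of no other row. Within 1 Mb on either side lie 12 other rows, of which 6 were tested. None of the 6 was called or had a p-value of at most 0.05 in the authors' deposited table, and their log2 ratios ran from -0.66 to 0.33. The tested rows nearest to CD82 were EXT2 and ACCS at -320 kb, toward lower coordinates, and AK097878 at 474 kb. Rows nearer than these were not tested. EXT2 and ACCS are listed at the same distance, as are AK097878 and the untested PRDM11. These distances are those of listed loci, and a gene within a shared locus may lie farther away. EXT2, an enzyme of heparan sulfate synthesis, was at 16.1 and 14.5 FPKM, and TSPAN18, the nearest family member at 144.7 kb, was listed at 0 in both groups. The locus of TSPAN18 is shared with another row that is also listed at 0 in both, so these zeros may be failed estimates and are not read as absence of the transcript.

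Because the hairpin lowers a factor that binds GGAA, the bases before the start of CD82 are shown with each such core in capitals. A core on the opposite strand reads TTCC, as both of those of CD82 do. For comparison, the same window is given for 1 of the 2 RefSeq starts of TSPAN6, the one with the most copies of CCGGAA, the longer form of the ETS site. Both are 250 bases, 5′ to 3′ on the gene's strand, from RefSeq on GRCh38.p14: chr11:44565413-44565662 on the plus strand for CD82 and chrX:100636807-100637056 on the minus strand for TSPAN6.
CD82: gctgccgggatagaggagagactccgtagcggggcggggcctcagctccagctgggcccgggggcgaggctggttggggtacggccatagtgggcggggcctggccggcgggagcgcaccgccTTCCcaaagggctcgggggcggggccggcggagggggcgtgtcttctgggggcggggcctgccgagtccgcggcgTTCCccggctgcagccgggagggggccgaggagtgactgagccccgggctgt
TSPAN6: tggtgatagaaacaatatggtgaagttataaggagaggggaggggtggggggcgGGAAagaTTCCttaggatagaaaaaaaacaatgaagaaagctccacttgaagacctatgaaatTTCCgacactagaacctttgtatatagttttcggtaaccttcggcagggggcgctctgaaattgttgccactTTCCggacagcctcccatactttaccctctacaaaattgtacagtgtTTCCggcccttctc

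In the CD82 window, the GGAA core occurs 2 times, starting 127 and 52 bases before the gene's start, and CCGGAA does not occur. The GC box GGGCGG, a site of Sp1-type factors, occurs 4 times, and 77.2% of the bases are G or C, against a median of 58% over all windows. TSPAN6, whose window holds 5 GGAA cores and 2 copies of CCGGAA, was not called, with 10.7 FPKM in shLuciferase against 14.8 in shETS1. The window of its other start holds 5 GGAA cores and no CCGGAA. The choice of TSPAN6 among the members followed no stated rule. With 0.812% of all tested genes called, the absence of a call for 1 gene says nothing about its motifs. Whether ETS1 binds these windows, or whether the motifs bear on the levels, was not tested. All motifs were searched on both strands, and a CCGGAA also counts as a GGAA. Of 35116 RefSeq windows of this length, 92.7% held GGAA, 14.5% CCGGAA and 42.6% GGGCGG. Windows were found for 25 of the 33 members. Of these 25, 23 had GGAA before at least 1 start, 4 (CD63, TSPAN4, TSPAN6 and TSPAN11) had CCGGAA and 16 had GGGCGG. These counts are per gene, and some genes have several starts. Counted per window, as for the shares above, 42 of 45 member windows held GGAA, 7 CCGGAA and 27 GGGCGG.

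**Figure D1:**
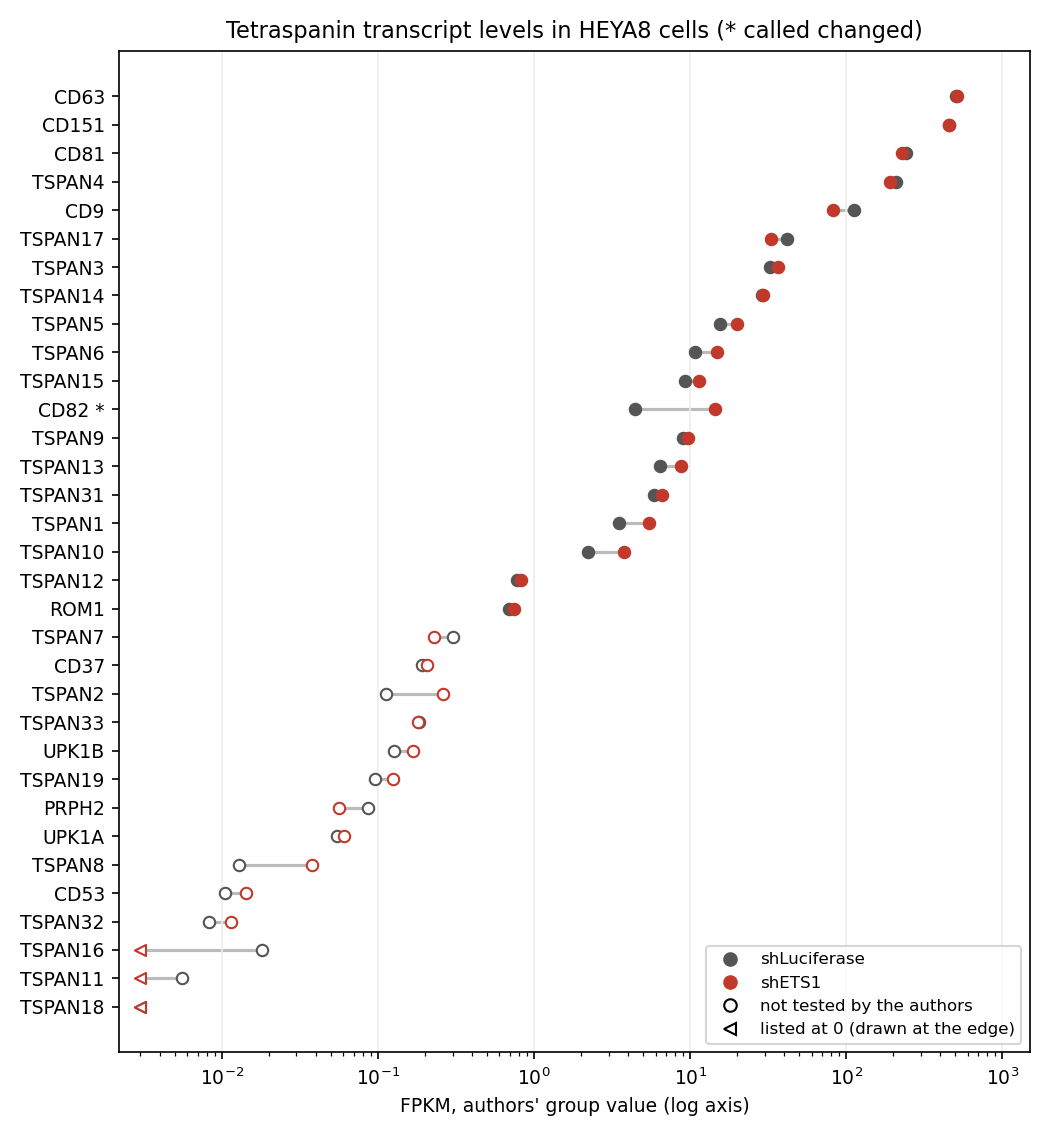
FPKM of all 33 tetraspanins on a log axis, 1 row per gene, with the authors' group value in shLuciferase (grey) and shETS1 (red) joined by a line. Filled points were tested by the authors, open points were not, and triangles at the left edge are values listed at 0. The 2 points of CD82 lie at 4.43 and 14.4 FPKM, and those of the 4 most abundant members nearly coincide.

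The other surface hubs were far more abundant than CD82 and none was called. CD63, the endosome and vesicle tetraspanin, had the highest level of the family, 502 FPKM with the control hairpin and 510.3 FPKM with the ETS1 hairpin. CD151, which binds laminin-binding integrins, was at 453 and 455 FPKM. The group values of these 2 genes differed by 1.61% and 0.521%. CD81, a partner of immunoglobulin-like receptors and of the B cell coreceptor, was at 242 and 228 FPKM. TSPAN4, known from the membrane tubes that migrating cells leave behind, was at 208 and 192 FPKM. CD9, known for its part in the fusion of egg and sperm and in cell motility, had the lowest ratio of the tested members, at 112 and 82.5 FPKM. On the log2 scale its ratio was -0.44 (p = 0.05795, q = 0.767, the authors' deposited table). CD82 and CD9 thus lay at the highest and the lowest ratio of the tested members.

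These 5 abundant genes made up 89.8% of the summed family FPKM in shLuciferase and 88.2% in shETS1. Summed over all 33 members, the level was 1689.9 FPKM in shLuciferase against 1664 in shETS1. The share of CD82 was 0.262% in shLuciferase, so its rise of 10.0 FPKM is small beside the sum. No order among neighbours in level can be tested without sample values. CD63 and CD151 kept ranks 1 and 2 in both groups, and TSPAN17 and TSPAN3 exchanged ranks 6 and 7.

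The TspanC8 members, which escort ADAM10, were expressed at middle levels, and none of the 5 tested was called, against 0.812% of all tested genes. TSPAN10 had the second highest ratio of the 19 tested members, after CD82. Its levels were 2.20 FPKM with the control hairpin and 3.76 FPKM with the ETS1 hairpin, 1.71-fold apart (p = 0.0137, q = 0.409, the authors' deposited table). CD82 and TSPAN10 were the 2 of 19 tested members with a p-value of at most 0.05 in the authors' deposited table, a limit that 6.94% of all tested genes met. TSPAN17 was the most abundant of the subgroup in shLuciferase, at 41.9 FPKM against 32.7 FPKM in shETS1, with a log2 ratio of -0.36. TSPAN14 was at 28.9 and 29.5 FPKM, TSPAN5 at 15.6 and 19.8 FPKM, and TSPAN15 at 9.24 and 11.4 FPKM. The ratios in this subgroup thus pointed both ways, 4 above 0 and 1 below. TSPAN33, the member not tested, was at 0.184 and 0.181 FPKM.

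The 7 other broadly expressed members were all tested and none was called, against 0.812% of all tested genes. Each of the 7 had a log2 ratio above 0. TSPAN1, described in several carcinomas, had the highest of these ratios, at 3.49 and 5.42 FPKM with a log2 ratio of 0.63. That difference was not called (p = 0.0834, q = 0.846, the authors' deposited table). The locus of TSPAN1 is shared with PIK3R3, which was at 0.797 and 0.781 FPKM. TSPAN6 had a log2 ratio of 0.47 and TSPAN13, at 6.43 and 8.80 FPKM, one of 0.45. Neither was called (q = 0.769 and 0.860, the authors' deposited table). TSPAN3 was at 32.4 and 36.6 FPKM and TSPAN9, a platelet tetraspanin that other cells also express, at 8.99 and 9.73 FPKM. TSPAN31, found amplified in sarcomas together with the neighbouring kinase gene CDK4, was at 5.90 and 6.58 FPKM. It shares its locus with CDK4, which was at 179 and 187 FPKM, and no strand-marking step is described in the labels' protocols, so the reads assigned to TSPAN31 are uncertain. TSPAN12, a coreceptor of the Norrin receptor FZD4, was at 0.773 and 0.829 FPKM.

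**Figure D2:**
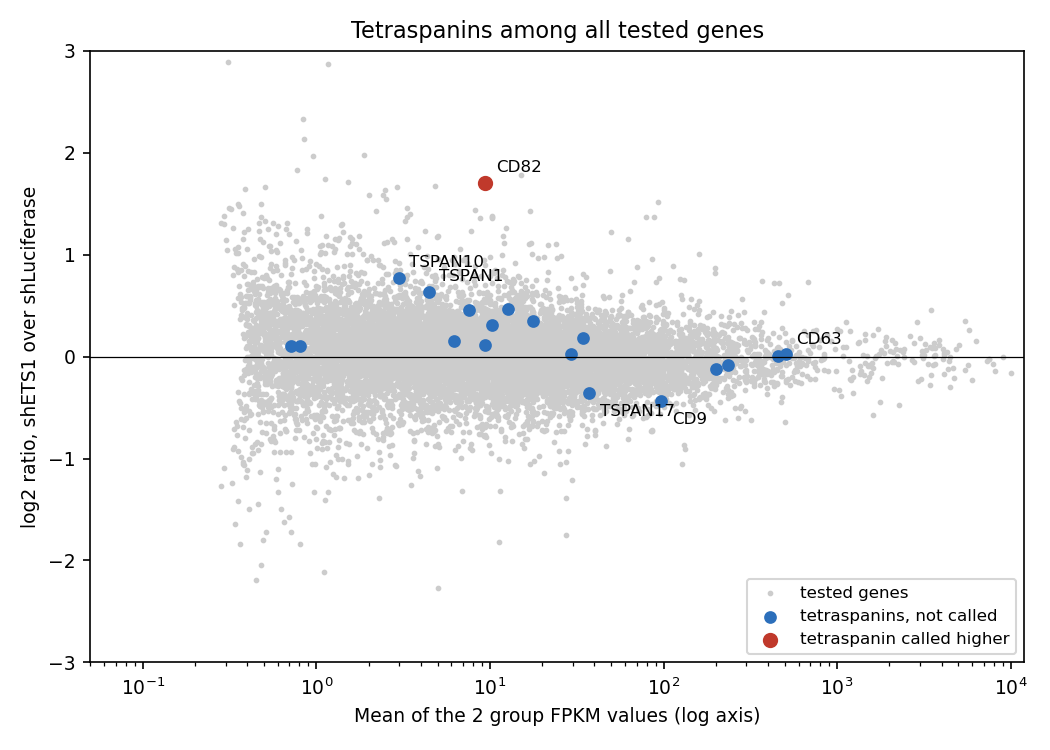
Log2 ratio of shETS1 over shLuciferase (vertical axis) against the mean of both group FPKM values (horizontal log axis) for all tested genes with a finite ratio (grey), with the 19 tested tetraspanins in blue and CD82 in red. CD82 lies at a log2 ratio of 1.71, and the other tested tetraspanins lie between -0.44 and 0.77. A total of 3 grey points fall outside the axes.

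Tetraspanins of specialised tissues were at or near the bottom of the range. Of 14 such genes, 1 was tested, and the 13 others are among the 14 untested members of the family. The class thus nearly coincides with the untested members, and its low level is not an independent result. It includes TSPAN18, whose zeros are not read as absence. ROM1, which shapes the disc rims of photoreceptors with PRPH2, was at 0.693 and 0.744 FPKM. Its locus is shared with EML3, which was at 16.8 and 11.1 FPKM, so the reads assigned to ROM1 are uncertain as well. PRPH2 was at 0.0865 and 0.0563 FPKM. The leukocyte tetraspanins CD37, CD53 and TSPAN32 were at 0.190, 0.0104 and 0.00826 FPKM in shLuciferase and at 0.206, 0.0143 and 0.0114 FPKM in shETS1. The locus of CD37 is shared with TEAD2, at 13.2 and 11.9 FPKM. Of 7 leukocyte markers, 5 were under 1 FPKM in both groups, and PTPRC and TYROBP were listed at 0 in both. Those above 1 FPKM were CD68, which many cell types express, at 48.5 and 47.1 FPKM, and CORO1A at 1.31 and 1.12 FPKM. The 7 summed to 51.0 and 48.9 FPKM. The uroplakins UPK1A and UPK1B were at 0.0542 and 0.126 FPKM in shLuciferase and at 0.0607 and 0.167 FPKM in shETS1. UPK2, another protein of the urothelial plaque, was at 0.0732 and 0.118 FPKM. UPK3B, a uroplakin that mesothelial cells also express, was at 2.95 and 2.61 FPKM, while the other 4 of 5 urothelial markers were under 1 FPKM in both groups.

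The remaining members of this kind had ratios that rest on very low levels. TSPAN7, a neuronal tetraspanin, was at 0.301 and 0.229 FPKM, TSPAN2, known from oligodendrocytes, at 0.113 and 0.262 FPKM, and TSPAN19 at 0.0963 and 0.124 FPKM. TSPAN8, found on several gastrointestinal carcinomas, was at 0.0129 and 0.0375 FPKM, and its locus is shared with LGR5, at 0.880 and 0.908 FPKM. TSPAN16 and TSPAN11 were at 0.0180 and 0.00554 FPKM in shLuciferase and listed at 0 in shETS1. The loci of TSPAN16 and UPK1A are also shared with other rows. None of these genes was tested by the authors, and no fold is given for them.

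Of the 19 tested members, 17 reached 1 FPKM on average over both groups, and 13 of them had a log2 ratio above 0 and 4 (CD9, CD81, TSPAN4 and TSPAN17) below. The median log2 ratio of these 17 was 0.16, and that of all 10676 tested genes at this level was 0.02, with 52.6% above 0. Subtracting the median of all tested genes left 12 of 17 above 0, since CD151 then lay below it. No gene in the whole table was called at a change under 1.83-fold. The 18 uncalled tetraspanins had absolute log2 ratios of at most 0.77, and without sample values these ratios do not show that they stayed the same.

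The ratios of the family were related to base composition in the same direction as those of all genes. Across the 17 members, Spearman's rank correlation between the log2 ratio and the GC content of the transcript was -0.51, and across 9735 genes with a GC value it was -0.46. Both are descriptions across genes, which share the same libraries and are not independent replicates. The 8 members with a GC content below the family's median had a median log2 ratio of 0.26 and the other 9 one of 0.02. CD82 lies away from this relation. The GC content of its transcript was 59.0%, where the trend over all genes had a log2 value of -0.12, and its ratio with the trend removed was 1.82. With the trend removed, CD81 and TSPAN4 changed from below to above 0, and 15 of the 17 members were above. In the same setting 4728 of the 9735 genes with a GC value were above 0, and their median was -0.01.

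**Figure D3:**
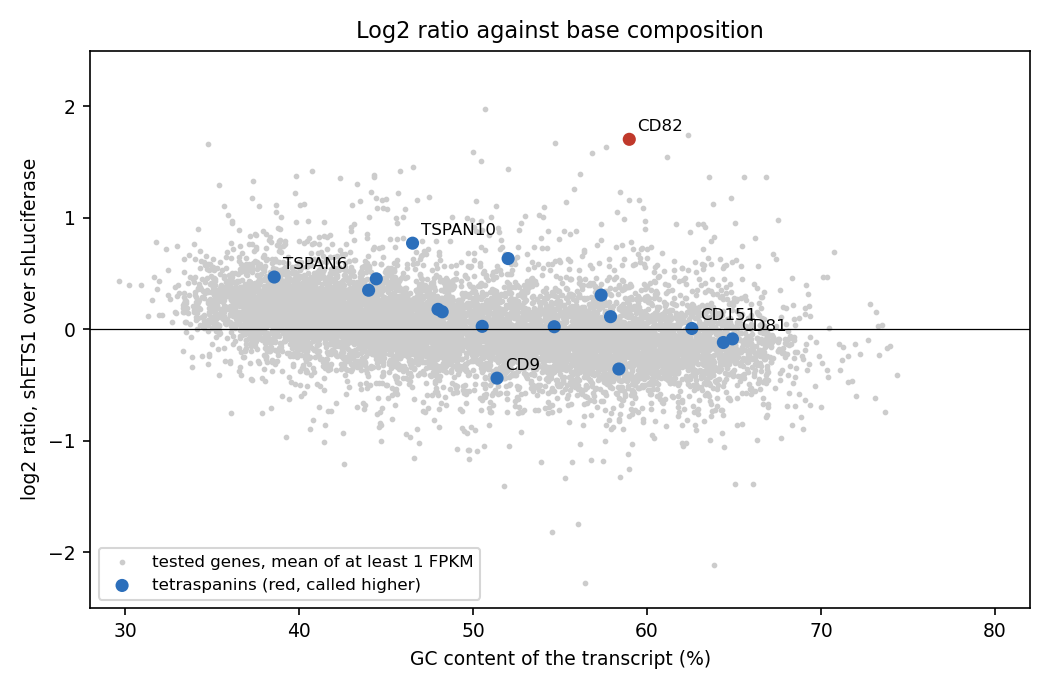
Log2 ratio of shETS1 over shLuciferase (vertical axis) against the GC content of the transcript in percent (horizontal axis), for tested genes with a mean of at least 1 FPKM (grey) and for the 17 tetraspanins among them (blue, with CD82 in red). CD82 lies at 59.0% GC and a log2 ratio of 1.71, while CD81, CD151 and TSPAN4 at the GC-rich end lie close to 0. A total of 2 grey points fall outside the axes.

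The membrane partners that tetraspanins gather were examined as a list of 27 genes, of which 25 were tested, 2 were called higher and none lower, against 0.544% and 0.268% of all tested genes. This list and those below were chosen with earlier results of these data known. Their counts therefore do not test an excess over the shares of all genes. CD46, a complement regulator that associates with tetraspanins and β1 integrins, rose from 10.7 to 23.0 FPKM. CLDN1, a tight junction protein found in complexes with CD9 and CD81, rose from 16.4 to 32.0 FPKM. Both were called (q = 0.00964 and 0.0242, the authors' deposited table). With the GC trend removed, the log2 ratio of CD46 was 0.89 instead of 1.10 and that of CLDN1 0.83 instead of 0.96. The median log2 ratio of the 25 was 0.00, and 0.05 with the trend removed. The 4 most abundant tested partners were not called: BSG, an immunoglobulin-like partner of transporters, was at 436 and 352 FPKM, MMP14, a membrane-bound matrix protease, at 171 and 192 FPKM, ITGA3, the α3 integrin bound by CD151, at 173 and 138 FPKM, and the hyaluronan receptor CD44 at 129 and 184 FPKM. A p-value of at most 0.05 in the authors' deposited table was reached by 5 of the 25, against 6.94% of all tested genes. Beyond CD46 and CLDN1 these were CD47 and ITGB1, both higher in shETS1, and LRP5, which was lower (7.76 and 5.53 FPKM), all named here after their values were seen. ITGB1, the β1 integrin shared by most tetraspanin-bound integrins, was at 100.4 and 153 FPKM (q = 0.424, the authors' deposited table). With the GC trend removed, the log2 ratio of ITGB1 was 0.44 instead of 0.60 and that of CD47 0.39 instead of 0.59. That of LRP5 was -0.35 instead of -0.49. IGSF8 and PTGFRN, the direct immunoglobulin-like partners of CD9 and CD81, also named outside the naming rule, were at 4.90 and 4.85 FPKM and at 3.42 and 2.63 FPKM.

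Genes of vesicle and lysosome biology that work with CD63 gave no call, against 0.812% of all tested genes. At that share most lists this short give none, so the absence of calls does not set these genes apart. Of 18 listed, 15 were tested, and 1 of them, VPS4B, had a p-value of at most 0.05 in the authors' deposited table, against 6.94% of all tested genes. VPS4B, an ATPase that recycles the machinery of vesicle budding, was at 3.95 and 6.85 FPKM (q = 0.189, the authors' deposited table). Its log2 ratio was 0.79, and 0.61 with the GC trend removed. The most abundant were TIMP1, a protease inhibitor that binds CD63, at 148 and 183 FPKM, the lysosomal membrane protein LAMP1 at 149.9 and 147 FPKM, HGS, a sorting protein of endosomes, at 143 and 124 FPKM, and CHMP4B, a subunit of the budding filament, at 128 and 135 FPKM. The median log2 ratio of the 15 was 0.09.

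Among 13 genes of the TspanC8 system, that is ADAM10, ADAM17 and substrates or targets of the Notch and shedding pathways, 9 were tested, 1 was called lower and none higher, against 0.268% and 0.544% of all tested genes. This list too was chosen with earlier results known, so its counts do not test an excess. The called gene was CDH5, the cadherin of endothelial junctions and an ADAM10 substrate, which fell from 17.6 to 5.00 FPKM (q = 0.00964, the authors' deposited table). CDH5 is also 1 of 6 endothelial markers, of which 4 were tested and CDH5 alone was called. TIE1 (164 and 122 FPKM), ROBO4 (21.0 and 12.8 FPKM) and ESAM (2.42 and 1.06 FPKM) were lower in shETS1 as well. KDR and CLDN5, not tested, were under 1 FPKM, with ratios above and below 0. Whether the fall of CDH5 has to do with ADAM10 was not tested. ADAM10 itself, named outside the naming rule, was at 5.04 and 5.71 FPKM. After CD44, the most abundant of the list were the amyloid precursor APP at 104 and 100.7 FPKM, the neural cadherin CDH2 at 18.1 and 17.9 FPKM and the receptor NOTCH2 at 15.2 and 10.7 FPKM, and none of them was called. A p-value of at most 0.05 in the authors' deposited table was listed for 4 of the 9, against 6.94% of all tested genes, with CDH5, NOTCH1 and NOTCH2 lower and HES1 higher in shETS1. NOTCH1 was at 10.8 and 6.39 FPKM and HES1 at 2.91 and 5.75 FPKM (q = 0.122 for each, the authors' deposited table). Neither was called, nor was NOTCH2 (q = 0.678, the authors' deposited table). NOTCH1 and HES1 are named here after their values were seen. The median log2 ratio of the 9 was -0.01.

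The TM4SF genes encode proteins of similar shape that are not tetraspanins by sequence. Of 6 listed, 3 were tested and none was called, against 0.812% of all tested genes, so no call is the usual outcome here. TM4SF1, a surface antigen of many carcinomas, was at 277 and 462 FPKM (p = 0.0031, q = 0.170, the authors' deposited table). It was the 1 gene of the 3 with a p-value of at most 0.05, a limit met by 6.94% of all tested genes. With the GC trend removed, the log2 ratio of TM4SF1 was 0.55 instead of 0.74. TM4SF19 was at 19.2 and 15.6 FPKM and TM4SF18 at 0.412 and 0.305 FPKM.

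Published regulators of CD82 transcription, signalling or turnover formed a list of 13 genes, all tested and none called. With 0.812% of all tested genes called, this absence does not set the list apart. The chromatin ATPases RUVBL2 and RUVBL1 were at 403 and 356 FPKM and at 78.0 and 76.9 FPKM. CTNNB1, which encodes β-catenin, was at 105 and 98.0 FPKM. In the authors' deposited table, 2 of the 13 had a p-value of at most 0.05, against 6.94% of all tested genes. They were JUNB and BCL3, both higher in shETS1 and named after their values were seen. BCL3, a cofactor of NF-kappaB p50, was at 3.30 and 5.11 FPKM (q = 0.533, the authors' deposited table). JUNB, an AP-1 subunit, was at 13.8 and 21.0 FPKM (q = 0.438, the authors' deposited table). With the GC trend removed, the log2 ratio of BCL3 was 0.78 instead of 0.63 and that of JUNB 0.75 instead of 0.61. The median log2 ratio of the list was 0.03.

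**Figure D4:**
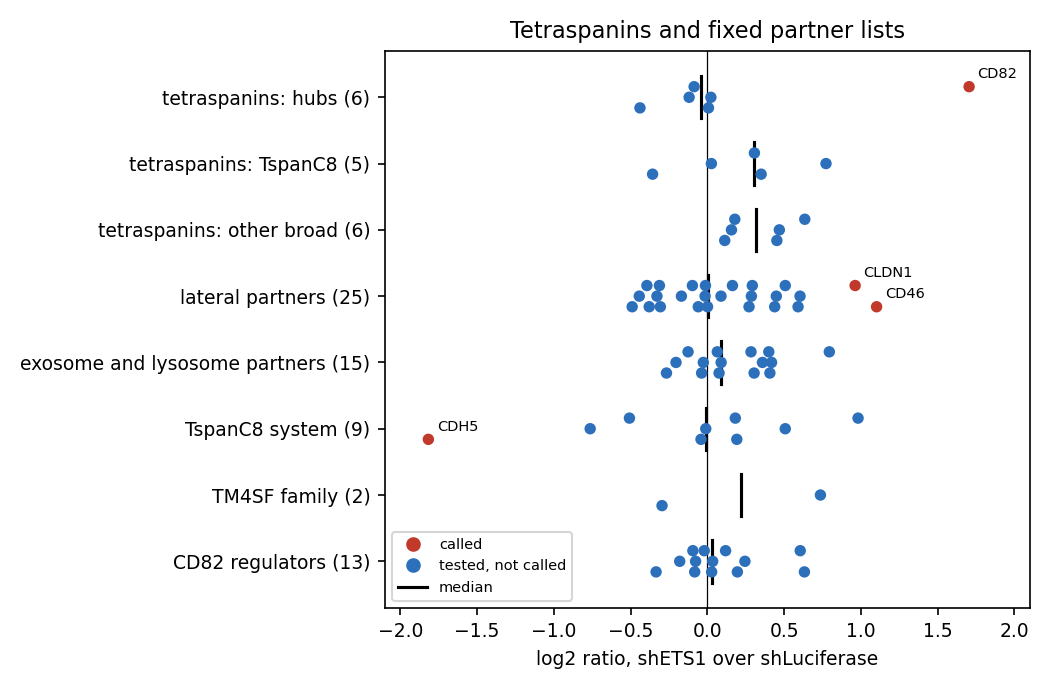
Log2 ratio of shETS1 over shLuciferase (horizontal axis) of each tested gene with a mean of at least 1 FPKM, for the tetraspanins by role and for the 5 partner lists, with the number of genes in parentheses. Red points were called and are labelled, blue points were not, black bars are medians and the vertical spread within a row has no meaning. CD82 lies farthest to the right at 1.71 and CDH5 farthest to the left at -1.82.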

How the data were processed

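Polyadenylated RNA of 3 samples per group was sequenced. The build was hg19 and the tools were Cufflinks 2.1.1, TopHat2 2.0.7, SAMtools 0.1.18 and Bowtie2 2.0.6, per the submitters' processing notes. Their roles, the annotation and any scaling across libraries were not given in the sources used here. The authors deposited 1 FPKM value per gene and group with a log2 fold change, p-value, q-value and test statistic, the last a score that was left aside, per the file headers. No per-sample values were used, so no test of sample spread was made, and the calls are those of the authors' test at a q-value of 0.05. The limma or edgeR tests planned for sample values could not be run.

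Ratios were computed from the deposited FPKM values and differed from the deposited log2 fold changes of 30 members by at most 7.38e-06; the other 3 are listed at 0 in at least 1 group. Deposited starts were raised by 1 to count from 1. GC content came from the GENCODE 29 transcript with the longest coding sequence, matched by symbol (91.2% of expressed genes), and its trend was a fit of degree 3, tested on simulated data. Alternatives were pseudocounts of 0.1 and 1 FPKM, centring, GC trend removal, other thresholds on q and level, and leaving out members with shared loci. Members and lists were chosen with earlier results of these data known. The naming rule took every member, ETS1, and the called and the 4 most abundant tested genes of each list. Some genes that this rule names are not reported here. Python 3.11.15, numpy 2.4.6 and pandas 2.3.3 were used.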

Additional observations from a re-analysis of the deposited data

How the results depend on the processing

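The count of called tetraspanins was 1 at q-values of 0.01, 0.05 and 0.1, among members averaging 5 FPKM or more and without members of shared loci (a setting chosen after seeing the data), and 2 at an unadjusted p-value of 0.05. The log2 ratio of CD82 was 1.51 with 1 FPKM added to both levels, 1.82 with the GC trend removed and between 1.68 and 1.69 with the other 2 settings. The family's median log2 ratio lay between 0.11 and 0.16 in the 8 settings tried. Counts for the 5 partner lists were the same at a q-value of 0.1 and when limited to genes averaging 1 FPKM or more. Among the 18 uncalled tested members, the GC trend changed the sign of CD81, TSPAN12 and TSPAN4 and centring that of CD151; neither pseudocount changed a sign. No paired analysis was possible because the table gives no values per sample, and for the same reason no sample could be left out. Depth is unknown and limits most the members under 1 FPKM.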

Other observations

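The family is concentrated on chromosomes 11 and 12, with 7 members on each in the deposited table. CD151 and TSPAN4, which lie 3.99 kb apart on chromosome 11, were both abundant in both groups. TSPAN32 lies 59.1 kb from CD81 on the same chromosome, but TSPAN32 was at 0.00826 and 0.0114 FPKM while CD81 was at 242 and 228 FPKM.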
